A study of Mus musculus with 20 samples.

Results

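The transcripts of cholesterol synthesis and of the sterol-sensing pathway were compared between the livers of 4 inbred mouse strains. The gene module, cholesterol synthesis and SREBP2 targets, lists 29 genes by symbol. A gene was taken where a probe set of the platform annotation carried exactly that symbol, and where several did, the brightest on average over the 20 arrays represented it. Of the 29 genes, 27 had such a probe set among 19938 genes with one, and all 27 passed the filter on dim genes, which kept 14190 genes. Acat2 and Soat2 had none and were not analysed here. All animals were male, 6 weeks old and fed a high-fat diet with 45% of calories from fat from weaning at 21 days. The 4 strains comprised NZO/Hl (NZO here), a strain known for obesity and diabetes, C3H, 129P2/OlaHsd (129P2 here) and C57/Bl6 (B6 here), with 5 animals and 1 array per animal in each. Values are log2 expression levels, so that a difference of 1 is a 2-fold difference, and one probe set's level is not set against another's.

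Hepatocytes make cholesterol from acetyl-CoA, first through mevalonate to farnesyl diphosphate, then through squalene and lanosterol to cholesterol. The genes of this route are transcribed under SREBP2, encoded by Srebf2, a membrane-bound transcription factor that SCAP carries out of the endoplasmic reticulum when sterols are low. INSIG proteins hold SCAP back when sterols are plentiful, so the enzymes of the route are known to move together in liver.

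Differences were tested with limma across all 14190 genes, and a difference is called higher or lower at a Benjamini-Hochberg adjusted p under 0.05. Each difference is given with its standard error, with 5 animals in each strain. The error of a gene rests on a residual variance pooled over all strains, so it is the same for each pair. Within strains, the SD was largest in 129P2 for all measured enzymes except Mvd and Ebp. For Sqle it was 0.363 in NZO, 0.396 in C3H, 0.955 in 129P2 and 0.418 in B6. For such genes the pooled error may be too small against 129P2 and too large among the other strains. Counts with the compared strains alone in the fit are given at the end. Array spread, the interquartile range of an array's values, lay between 2.171 in C3H replicate 3 and 2.495 in NZO replicate 1, and averaged 2.33 in NZO, 2.31 in C3H, 2.32 in 129P2 and 2.43 in B6. Of the 27 genes of the module, 2 followed array spread within strains, Ebp (limma adjusted p = 0.00189) and Npc2 (0.00293), against 49% of all tested genes. Insig2 and Stard4 fell just short (0.0503 and 0.0522). Slopes on array spread ran from -0.81 for Mvd to 2.34 for Insig2. That of Lss, 1.37, did not pass (0.285), though it was near that of Ebp, 1.36. A gene that did not pass is thus not shown to be free of array spread. The 5 hepatocyte markers, Alb, Ttr, Apoa1, Cps1 and Hnf4a, passed the test in 0 of the 6 strain comparisons, and their mean level lay between 13.5 and 13.7 on all arrays. Of all tested genes, 5.03% to 10.3% were called in a comparison, so 0 calls among 5 markers is near that share. In bulk liver, fewer cells of a type and less RNA per cell cannot be told apart. Sequence differences between strains under the probes were not tested.

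Many animals lay above or below their strain mean for nearly all the synthesis enzymes at once. Relative to the mean of all 20 animals, the median deviation of the 17 measured enzymes was -1.07, -0.97, -0.37, 0.15 and -0.79 in 129P2 replicates 1 to 5. Replicate 4 was thus the one 129P2 animal above the overall mean, and all 17 enzymes lay above their 129P2 mean in it. The same medians were -0.15, 0.13, 0.49, 0.14 and 0.03 in NZO, 0.10, 0.60, 0.19, 0.70 and 0.54 in C3H, and -0.42, 0.16, -0.08, 0.39 and 0.19 in B6. NZO replicate 3 was the high animal of its strain, with 16 of 17 enzymes above the strain mean. B6 replicate 1 was the low animal of its strain, with 0 of 17. Such shifts were not limited to these animals. The count was 17 of 17 in B6 replicates 4 and 5 and 0 in 129P2 replicate 5. It was 16 in 129P2 replicate 3 and C3H replicate 4, and 1 in C3H replicates 1 and 3. Array spread was 2.334 in 129P2 replicate 4, 2.296 in NZO replicate 3 and 2.408 in B6 replicate 1. The arrays of widest and narrowest spread shifted as well. NZO replicate 1, at 2.495, had 2 of 17 enzymes above the strain mean, and C3H replicate 3, at 2.171, had 1 of 17. The part of array spread in the level of any single animal was not tested.

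**Figure D1:**
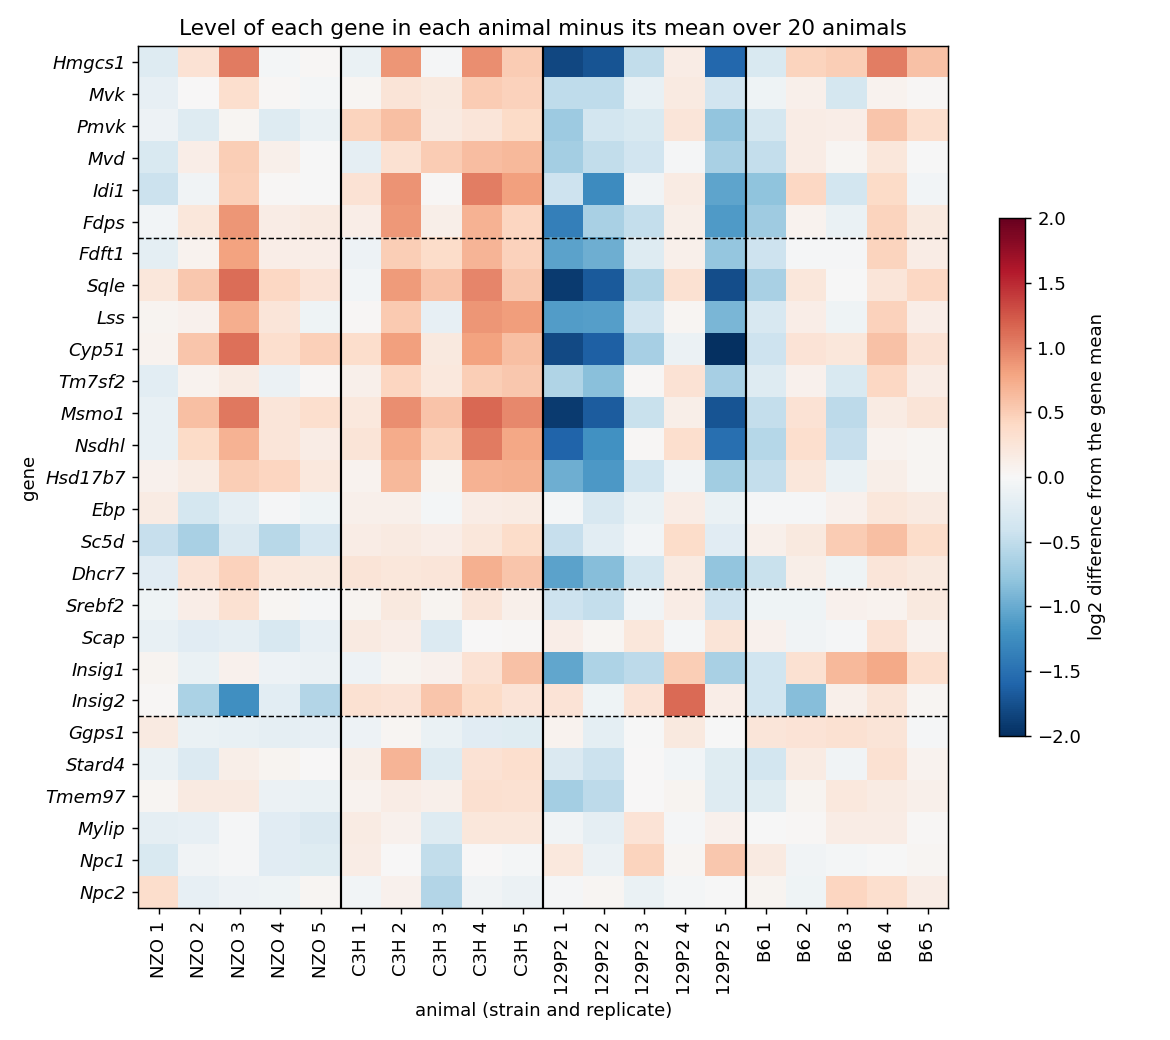
Level of each of the 27 genes in each of the 20 animals (columns, by strain and replicate), minus the gene's mean over all animals, on the log2 scale (colour bar); dashed lines part the mevalonate enzymes, the sterol enzymes, the regulators and the branch and transport genes. The enzyme block is blue in 129P2 replicates 1, 2 and 5, paler in replicate 3 and near or above the mean in replicate 4. In NZO, Sc5d lies below its mean in all animals, and Insig2 in all but replicate 1.

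Many enzymes of cholesterol synthesis were lower in 129P2 than in the other strains. Against 129P2, 15 of 17 enzymes were higher in C3H and 11 of 17 in NZO. The median difference over the 17 was 1.10 for C3H minus 129P2 and 0.78 for NZO minus 129P2, where the median over all tested genes was 0.01 in both. In 129P2 minus B6, 8 of 17 were lower, all 17 differences were negative, and the median was -0.61, against 0.00 over all genes. In the 3 comparisons among NZO, C3H and B6, the one enzyme called was Sc5d, lower in NZO than in C3H and in B6. The C3H minus B6 differences were positive for 15 of 17 enzymes with a median of 0.36, against 0.00 over all genes, and 0 passed. The highest of them were Msmo1 (0.82 ± 0.31), Nsdhl (0.77 ± 0.29) and Idi1 (0.69 ± 0.26), at limma adjusted p of 0.112, 0.11 and 0.109. NZO minus C3H was negative for 17 of 17 with a median of -0.22, and NZO minus B6 positive for 12 of 17 with a median of 0.14, against 0.01 over all genes.

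Over all 27 genes of the module, 17 were higher and 0 lower in C3H minus 129P2, where 5.03% of all tested genes were called 2.25% were higher and 2.78% lower. In NZO minus 129P2, 11 were higher and 3 lower, with 8.9% of all genes called, and 4.29% of all genes higher and 4.61% lower. In 129P2 minus B6, 0 were higher and 9 lower, with 6.19% of all genes called, 2.11% higher and 4.08% lower. The other comparisons held few calls: 2 lower of 27 in NZO minus C3H (6.6% of all genes called, 3.09% lower), 2 lower in NZO minus B6 (10.3% and 6.64%) and 1 lower in C3H minus B6 (8.05% and 5.34%), all at or near the share among all genes. The moderated F-test over the 4 strains passed for 20 of 27 genes, against 17% of all tested genes. The 7 without a pass were Ebp, Srebf2, Stard4, Tmem97, Mylip, Npc1 and Npc2.

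Each animal was left out in turn, and 129P2 replicate 4 is followed here because these same enzyme values set it apart. It was the highest animal of the lowest strain for most enzymes, and also for Srebf2, Insig1 and Tmem97. Leaving it out thus widens those gaps by construction. The counts and values given without it are thus no separate support for a strain difference. Leaving out 129P2 replicate 4 raised the counts against 129P2. C3H minus 129P2 then gave 19 calls, NZO minus 129P2 18 and 129P2 minus B6 16, with 0 of the earlier calls lost. The calls gained were Sc5d and Insig1 in C3H minus 129P2, and Mvk, Tm7sf2, Srebf2 and Insig1 in NZO minus 129P2. In 129P2 minus B6 they were Fdps, Fdft1, Tm7sf2, Nsdhl, Dhcr7, Srebf2 and Tmem97. For Fdps that difference was -0.67 ± 0.24 with all animals and -0.88 ± 0.22 without 129P2 replicate 4 (limma adjusted p = 0.111 and 0.0195). For Dhcr7 it was -0.59 ± 0.19 and -0.78 ± 0.16 (0.0623 and 0.00321), and for Tmem97 -0.33 ± 0.12 and -0.42 ± 0.12 (0.131 and 0.04998). Without NZO replicate 3, NZO minus 129P2 gave 10 calls, and without B6 replicate 1, 129P2 minus B6 gave 13. The 9 calls of 129P2 minus B6 fell to 2 without 129P2 replicate 1, 129P2 replicate 5 or B6 replicate 4, to 3 without 129P2 replicate 2 or B6 replicate 5, to 4 without B6 replicate 2 or 3, and to 5 without NZO replicate 5. The small counts moved too: NZO minus C3H gave 1 call without NZO replicate 3 and 4 without C3H replicate 3, NZO minus B6 1 without NZO replicate 2, 3, 4 or 5 or B6 replicate 1, 3 or 4 and 4 without C3H replicate 3, and C3H minus B6 2 without C3H replicate 1 or 2 or B6 replicate 2. With array spread as a covariate, 129P2 minus B6 gave 2 calls, C3H minus 129P2 18 and NZO minus 129P2 14.

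A group of 6 enzymes was lower in 129P2 than in each of the other 3 strains: Hmgcs1, Sqle, Lss, Cyp51, Msmo1 and Hsd17b7. Among all tested genes, 0.627% (89 genes) were. NZO, C3H and B6 were each set apart from the other 3 strains, in either direction, for 0 genes of the module. Among all genes the shares were 0.973% higher and 1.22% lower in NZO, 0.31% and 0.641% in C3H, and 0.973% and 0.465% in B6. The 6 enzymes became 13 without 129P2 replicate 4 and 10 without B6 replicate 1. They became 3 without NZO replicate 5, and 2, Hmgcs1 and Cyp51, without any one of 129P2 replicates 1, 2 and 5 and B6 replicates 2, 4 and 5. Hmgcs1 and Cyp51 kept their call against B6 without any one animal. The calls against B6 of the other 4 ended without any one of 129P2 replicates 1, 2 and 5 and B6 replicates 2, 4 and 5, with limma adjusted p up to 0.0832 for Sqle, 0.139 for Lss, 0.122 for Msmo1 and 0.143 for Hsd17b7. Lss also lost it without NZO replicate 2, 4 or 5 or B6 replicate 3, Msmo1 without NZO replicate 5 or C3H replicate 5, and Hsd17b7 without NZO replicate 2, 3, 4 or 5 or B6 replicate 3.

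Hmgcs1 encodes the cytosolic synthase that makes HMG-CoA, the entry to the mevalonate route. Its level was 10.15, 10.71, 11.45, 10.37 and 10.44 in NZO, 10.27, 11.30, 10.38, 11.34 and 10.93 in C3H, 8.60, 8.70, 9.92, 10.56 and 8.85 in 129P2 and 10.12, 10.87, 10.91, 11.43 and 10.99 in B6. In 129P2, replicates 1, 2, 3 and 5 lay below all 15 animals of the other strains, and replicate 4 lay inside the range of all 3. Hmgcs1 was higher in NZO than in 129P2 by 1.30 ± 0.33 (limma adjusted p = 0.0123) and higher in C3H than in 129P2 by 1.52 ± 0.33 (adjusted p = 0.00554). In 129P2 it stood at 34.4% of the B6 level, a difference of -1.54 ± 0.33 (0.00424). Without 129P2 replicate 4 these differences were 1.61 ± 0.30, 1.83 ± 0.30 and -1.85 ± 0.30.

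The other 5 measured enzymes of the mevalonate arm were higher in C3H than in 129P2 as well, so that 6 of 6 were. Mvk and Pmvk, the kinases that phosphorylate mevalonate in turn, differed by 0.57 ± 0.13 and 0.76 ± 0.16. Mvd, the decarboxylase that yields isopentenyl diphosphate, differed by 0.82 ± 0.16, and Idi1, its isomerase, by 1.14 ± 0.26. Fdps, farnesyl diphosphate synthase, differed by 1.14 ± 0.24. The limma adjusted p of these 5 lay between 0.00265 for Mvd and 0.00975 for Idi1. In NZO minus 129P2, Mvd (0.53 ± 0.16) and Fdps (0.98 ± 0.24) were higher beside Hmgcs1, which makes 3 of 6. In 129P2 minus B6, Pmvk was lower (-0.55 ± 0.16, limma adjusted p = 0.0446) beside Hmgcs1. The Pmvk call ended without any one of NZO replicates 3 to 5, C3H replicates 1, 4 and 5, 129P2 replicates 1, 2, 3 and 5 and B6 replicates 2 to 5, with limma adjusted p up to 0.149. The Mvd call of NZO minus 129P2 ended without any one of NZO replicates 2 to 5, 129P2 replicates 1, 2, 3 and 5 and B6 replicate 5, with limma adjusted p up to 0.148. The Fdps level was 9.36, 9.64, 10.30, 9.57 and 9.59 in NZO, 9.55, 10.28, 9.53, 10.11 and 9.84 in C3H, 8.05, 8.77, 8.94, 9.54 and 8.29 in 129P2 and 8.71, 9.48, 9.29, 9.87 and 9.61 in B6. The highest 129P2 value, from replicate 4, lay within the ranges of the other 3 strains, and replicates 1 and 5 lay below all 15 of their animals.

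Squalene synthase, encoded by Fdft1, commits farnesyl diphosphate to sterols, and Sqle encodes squalene epoxidase, a rate-limiting step of the later route. Sqle stood at 9.20, 9.52, 10.10, 9.38 and 9.24 in NZO, 8.92, 9.82, 9.54, 9.95 and 9.52 in C3H, 7.07, 7.30, 8.38, 9.27 and 7.20 in 129P2 and 8.32, 9.20, 8.97, 9.22 and 9.39 in B6. In 129P2, replicates 1, 2 and 5 were more than 1 log2 unit below every animal of the other strains, replicate 3 lay within the B6 range, and replicate 4 lay within all 3 ranges. It was higher in NZO than in 129P2 by 1.65 ± 0.32, a fold of 3.13 (limma adjusted p = 0.00126), and higher in C3H than in 129P2 by 1.71 ± 0.32, a fold of 3.27 (0.0013). For 129P2 minus B6 the difference was -1.18 ± 0.32 (limma adjusted p = 0.0263), and -1.53 ± 0.26 without 129P2 replicate 4. Fdft1 was higher in NZO and in C3H than in 129P2, by 0.78 ± 0.21 and 0.98 ± 0.21, with the NZO call lost without NZO replicate 3 or 129P2 replicate 1 or 2 (limma adjusted p up to 0.0695). Its 129P2 minus B6 difference of -0.62 ± 0.21 did not pass with all animals (limma adjusted p = 0.0864), and was -0.80 ± 0.20 without 129P2 replicate 4 (0.015).

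Lss, lanosterol synthase, closes the ring system. Its level was 9.05, 9.08, 9.72, 9.23 and 8.90 in NZO, 9.01, 9.51, 8.83, 9.88 and 9.83 in C3H, 7.87, 7.88, 8.60, 9.04 and 8.08 in 129P2 and 8.67, 9.13, 8.91, 9.46 and 9.12 in B6. Again 129P2 replicates 1, 2, 3 and 5 lay below all 15 other animals, replicate 3 just under the lowest B6 animal, and replicate 4 lay within the other ranges. Lss differed by 0.90 ± 0.23 in NZO minus 129P2, 1.12 ± 0.23 in C3H minus 129P2 and -0.76 ± 0.23 in 129P2 minus B6 (limma adjusted p = 0.0113, 0.00298 and 0.045).

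Cyp51, the lanosterol demethylase, had the largest difference of the module in NZO minus 129P2. It read 9.77, 10.27, 10.81, 10.04 and 10.18 in NZO, 10.06, 10.52, 9.90, 10.52 and 10.31 in C3H, 7.90, 8.07, 9.04, 9.59 and 7.64 in 129P2 and 9.29, 9.98, 9.93, 10.30 and 10.002 in B6. All 5 values in 129P2 lay below all NZO and all C3H values, and 4 of the 5 lay below all B6 values. The difference was 1.77 ± 0.28 in NZO minus 129P2, a fold of 3.40 (limma adjusted p = 0.000148), and 1.82 ± 0.28 in C3H minus 129P2, a fold of 3.52 (0.00014). In 129P2 the level was 36.5% of that in B6 (-1.45 ± 0.28, limma adjusted p = 0.0015). All 3 calls held without any one animal and under all 11 other settings tried.

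**Figure D2:**
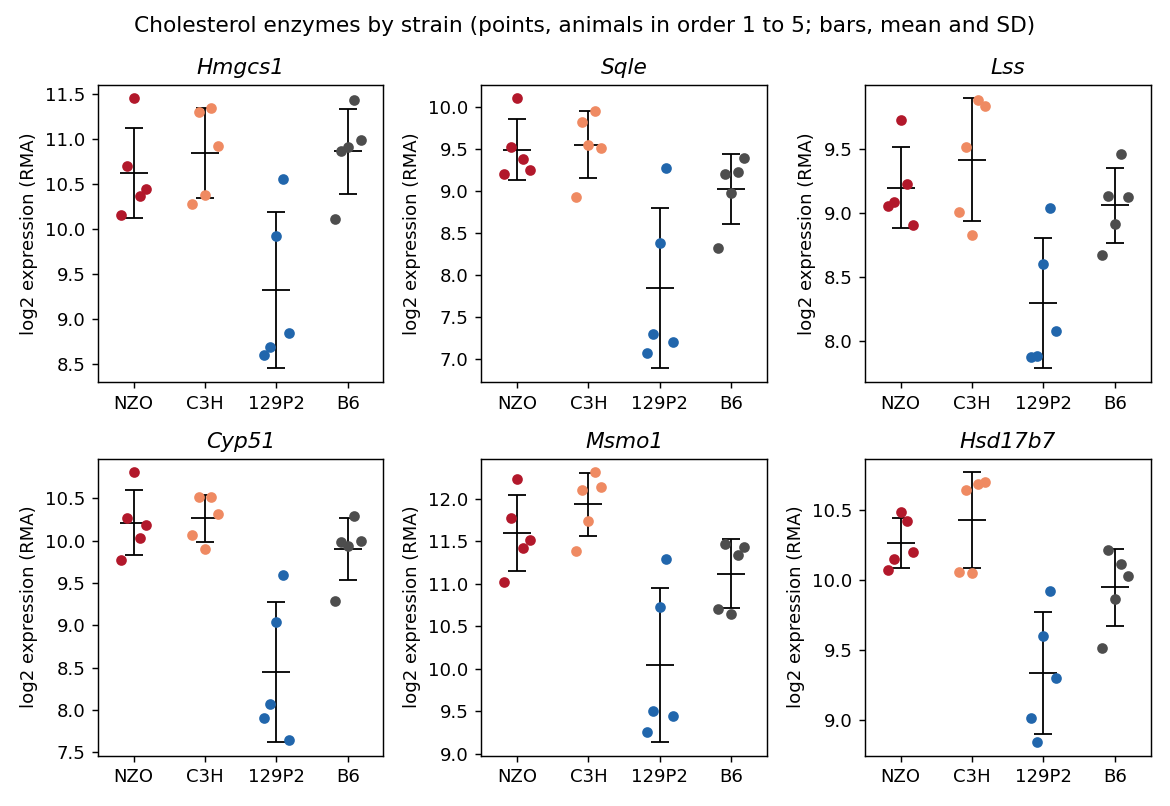
Log2 expression of Hmgcs1, Sqle, Lss, Cyp51, Msmo1 and Hsd17b7 in each animal by strain (points, replicates 1 to 5 from left to right; bars, mean and SD, n = 5). In each panel 129P2 replicates 3 and 4 lie above the other 3 animals of that strain, and the 129P2 mean is the lowest of the 4.

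Msmo1, Nsdhl and Hsd17b7 encode the oxidase, the decarboxylating dehydrogenase and the ketoreductase that strip the methyl groups from carbon next to the sterol's hydroxyl. Msmo1 stood at 11.02, 11.77, 12.23, 11.42 and 11.51 in NZO, 11.38, 12.10, 11.73, 12.31 and 12.13 in C3H, 9.26, 9.50, 10.73, 11.29 and 9.44 in 129P2 and 10.70, 11.46, 10.65, 11.33 and 11.43 in B6. All 5 values in 129P2 lay below all C3H values, and replicate 4 alone overlapped NZO. It differed by 1.55 ± 0.31 in NZO minus 129P2, by 1.89 ± 0.31 in C3H minus 129P2 and by -1.07 ± 0.31 in 129P2 minus B6 (limma adjusted p = 0.00191, 0.000342 and 0.0424). The C3H minus 129P2 value, a fold of 3.70, was the largest of the module.

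For Hsd17b7 the animals read 10.07, 10.15, 10.49, 10.42 and 10.20 in NZO, 10.06, 10.64, 10.05, 10.69 and 10.71 in C3H, 9.01, 8.84, 9.60, 9.92 and 9.30 in 129P2 and 9.52, 10.22, 9.86, 10.11 and 10.03 in B6. The 129P2 values did not overlap those of NZO or C3H, and 2 of the 5 overlapped B6. Hsd17b7 differed by 0.93 ± 0.18, 1.10 ± 0.18 and -0.61 ± 0.18 in the same 3 comparisons (limma adjusted p = 0.0013, 0.000341 and 0.0448). Nsdhl was higher in NZO and in C3H than in 129P2, by 1.06 ± 0.29 and 1.44 ± 0.29, and the NZO call ended without NZO replicate 3 or 129P2 replicate 1, 2 or 5 (limma adjusted p up to 0.0772). Its 129P2 minus B6 difference was -0.68 ± 0.29 with all animals and -0.96 ± 0.26 without 129P2 replicate 4 (limma adjusted p = 0.205 and 0.0294).

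The later enzymes were more mixed. Dhcr7, the reductase of the final step, was higher in NZO (0.77 ± 0.19) and in C3H (0.98 ± 0.19) than in 129P2, with no overlap between C3H, at 10.56 to 11.05, and 129P2, at 9.27 to 10.51. Tm7sf2, a sterol reductase that follows Cyp51, was higher in C3H than in 129P2 by 0.71 ± 0.18 (limma adjusted p = 0.0151, and 0.0542 without 129P2 replicate 5). Without 129P2 replicate 4, Tm7sf2 also passed in NZO minus 129P2 and 129P2 minus B6, at 0.51 ± 0.16 and -0.54 ± 0.16, against 0.35 ± 0.18 and -0.38 ± 0.18 with all animals. Ebp, a sterol isomerase, passed in 0 of 6 comparisons, with levels from 10.79 to 11.38 over all animals and a C3H minus 129P2 difference of 0.19 ± 0.09. Values of the sterol arm did not overlap between C3H and 129P2 for 4 of 11 enzymes, and over the module for 5 of 27, the fifth being Tmem97, where 2.39% of all tested genes were higher without overlap. For NZO and 129P2, Cyp51 and Hsd17b7 were higher without overlap (3.88% of all genes). In 129P2 minus B6, 0 of 27 genes were free of overlap, against 7.41% of all genes.

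Sc5d, the desaturase that acts near the end of the route, had another strain order, with NZO lowest. Its level was 11.92, 11.74, 12.10, 11.83 and 12.04 in NZO, 12.53, 12.56, 12.51, 12.61 and 12.75 in C3H, 11.92, 12.16, 12.33, 12.75 and 12.15 in 129P2 and 12.48, 12.58, 12.88, 12.98 and 12.74 in B6. All 5 NZO values lay below all C3H and all B6 values, while 129P2 overlapped every strain. Sc5d was lower in NZO than in C3H, with a difference of -0.67 ± 0.12 (limma adjusted p = 0.000734) and lower in NZO than in B6, with a difference of -0.81 ± 0.12 (7.6e-05). Both calls held without any one animal and under all 11 other settings. The NZO minus 129P2 difference of -0.34 ± 0.12 did not pass (0.09) and was -0.22 ± 0.10 without 129P2 replicate 4. The C3H minus 129P2 difference was 0.33 ± 0.12 with all animals and 0.45 ± 0.10 without that animal (limma adjusted p = 0.136 and 0.0115). Sc5d was lower in 129P2 than in B6, with a difference of -0.47 ± 0.12 (0.0185). This 129P2 minus B6 call ended without 129P2 replicate 1 or 5 or B6 replicate 3 or 4 (limma adjusted p up to 0.0707). Ebp and Sc5d were the 2 enzymes with a negative NZO minus 129P2 difference, and for Ebp it was -0.00 ± 0.09, with 0.06 ± 0.10 when 129P2 replicate 4 was left out.

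The 17 enzymes moved together from animal to animal. Over deviations from the strain means in 20 animals, the median pairwise Pearson correlation among the 17 was 0.825, and among all tested genes it was 0.004. The animals share the arrays for all genes, so this describes these animals. Deviations were not scaled by strain, so animals far from their strain mean weigh most. The median enzyme deviation was largest in 129P2 replicate 4, at 0.70. Next were B6 replicate 1, at -0.44, and NZO replicate 3, at 0.43. The part of single animals in these correlations, and in those of similar genes below, was not tested. Each enzyme's correlation with the mean of the other 16 lay between 0.774 and 0.964, with the exception of Ebp at 0.352, and was highest for Hmgcs1. Among the regulators it was 0.872 for Srebf2, 0.806 for Insig1, 0.262 for Insig2 and -0.03 for Scap. Tmem97 and Stard4 had 0.799 and 0.686, Mylip 0.418, and Ggps1, Npc1 and Npc2 0.05, 0.003 and -0.005.

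**Figure D3:**
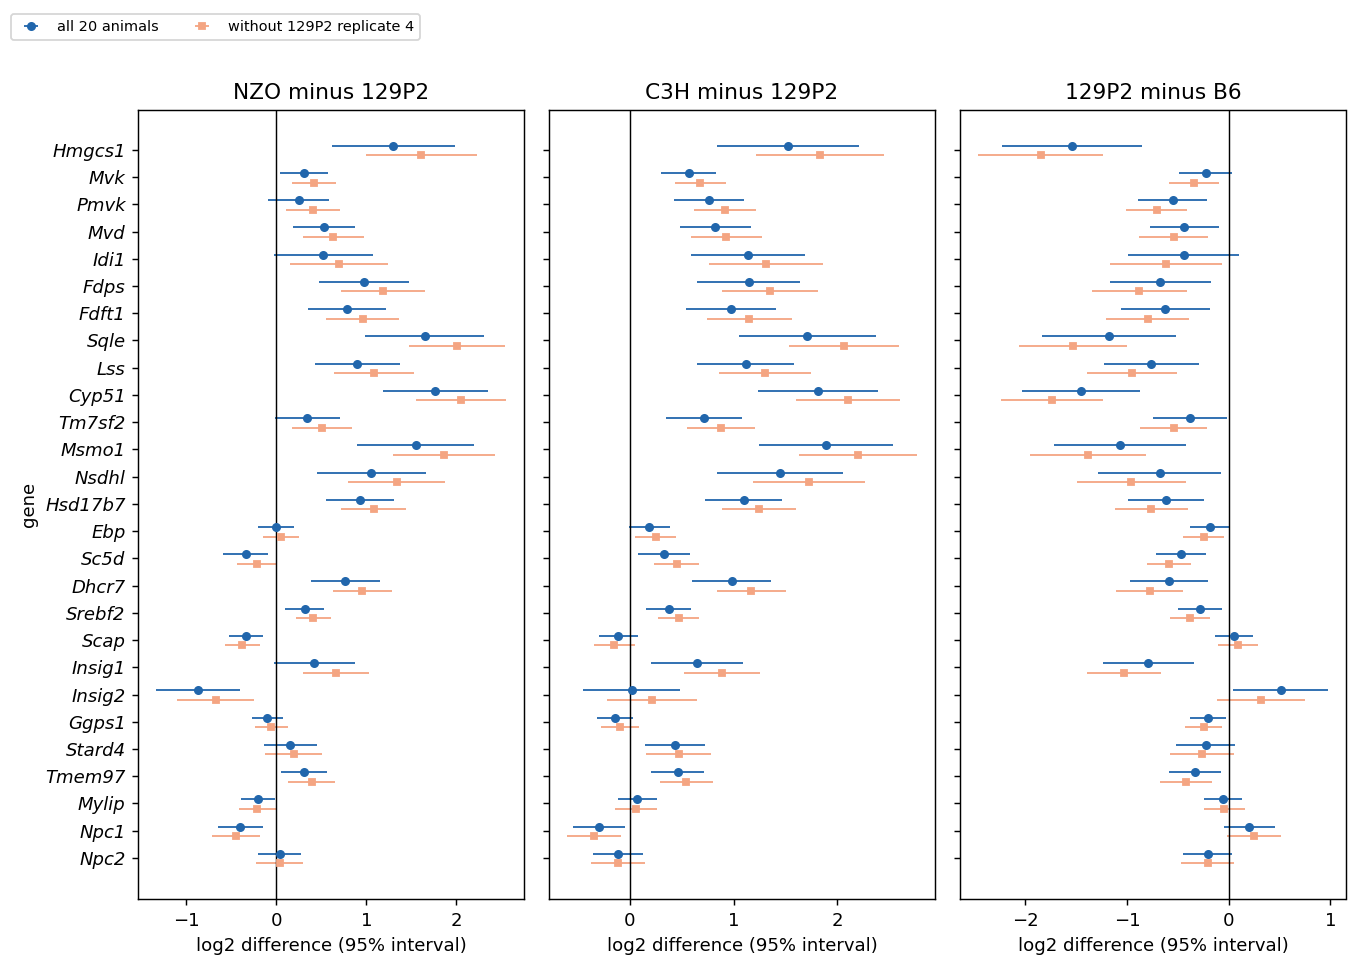
Log2 difference with its 95% interval for each gene in NZO minus 129P2, C3H minus 129P2 and 129P2 minus B6, with all 20 animals (circles) and without 129P2 replicate 4 (squares). Most enzymes lie right of 0 in the first 2 panels and left of 0 in the third, farther from 0 without that animal; for Cyp51 in NZO minus 129P2 the value is 1.77 with it and 2.05 without it.

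Upstream sequence is shown for 5 of the 6 enzymes that were lower in 129P2 than in each other strain, since these genes moved together. The sequences are the 250 bases before the annotated start in RefSeq, build GRCm38.p6, on the strand of the gene and from 5′ to 3′, and Sqle was not in the table. Capitals mark the CCAAT box, CCAAT or ATTGG on the other strand, which binds NF-Y, and in Hmgcs1 the sterol regulatory element motif TCACNCCAC. Hmgcs1 lies at chr13:119690101-119690350 on the plus strand, Cyp51 at chr5:4104698-4104947 on the minus strand, Msmo1 at chr8:64733579-64733828 on the minus strand, Hsd17b7 at chr1:169969206-169969455 on the minus strand and Lss at chr10:76531355-76531604 on the plus strand.
Hmgcs1: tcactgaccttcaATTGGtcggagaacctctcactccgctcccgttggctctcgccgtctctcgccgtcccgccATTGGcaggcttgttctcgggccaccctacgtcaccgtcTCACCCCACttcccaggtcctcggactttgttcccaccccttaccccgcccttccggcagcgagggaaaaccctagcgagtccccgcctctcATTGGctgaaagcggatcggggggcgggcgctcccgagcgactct
Cyp51: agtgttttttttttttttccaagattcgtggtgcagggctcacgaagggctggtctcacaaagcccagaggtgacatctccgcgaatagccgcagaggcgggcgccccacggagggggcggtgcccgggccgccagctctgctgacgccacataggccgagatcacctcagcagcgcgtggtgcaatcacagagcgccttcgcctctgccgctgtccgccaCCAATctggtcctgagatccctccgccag
Msmo1: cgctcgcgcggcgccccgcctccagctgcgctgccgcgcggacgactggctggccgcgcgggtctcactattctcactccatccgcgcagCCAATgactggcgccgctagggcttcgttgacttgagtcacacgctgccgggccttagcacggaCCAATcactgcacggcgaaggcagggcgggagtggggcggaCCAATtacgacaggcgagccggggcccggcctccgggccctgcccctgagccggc
Hsd17b7: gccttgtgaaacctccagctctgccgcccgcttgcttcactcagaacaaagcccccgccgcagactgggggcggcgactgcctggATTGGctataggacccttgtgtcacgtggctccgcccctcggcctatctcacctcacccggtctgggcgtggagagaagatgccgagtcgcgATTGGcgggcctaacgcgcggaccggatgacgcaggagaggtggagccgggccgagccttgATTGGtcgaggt
Lss: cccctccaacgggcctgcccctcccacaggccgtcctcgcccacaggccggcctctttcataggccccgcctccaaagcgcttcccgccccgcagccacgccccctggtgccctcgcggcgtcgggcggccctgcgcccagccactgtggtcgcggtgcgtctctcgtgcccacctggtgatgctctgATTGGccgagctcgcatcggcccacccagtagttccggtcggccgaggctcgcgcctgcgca
The CCAAT box occurred in 21 of the 22 module genes with a promoter in the table, the exception being Scap, and in 38.7% of 11218 tested genes with one. The 3 copies of Msmo1 lay 160, 96 and 55 bases before the start, and those of Hmgcs1 at 237, 176 and 45 bases. The GC box GGGCGG, searched on both strands, occurred in 20 of the 22, against 59.2% of tested genes. TCACNCCAC, searched on both strands, occurred in 1 of the 22, Hmgcs1, where it ended 129 bases before the start, against 1.3% of tested genes. These motifs share no bases with each other in the sequences shown, and a match describes letters only. The reference is one genome, so these letters do not differ by strain here.

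Srebf2, which encodes the factor itself, was lower in 129P2 than in C3H. Its level was 8.74, 8.96, 9.13, 8.87 and 8.80 in NZO, 8.88, 9.02, 8.89, 9.07 and 8.94 in C3H, 8.42, 8.35, 8.76, 8.98 and 8.42 in 129P2 and 8.75, 8.75, 8.92, 8.90 and 9.03 in B6. In 129P2, replicates 1, 2 and 5 lay below every other animal, replicate 3 lay within the NZO and B6 ranges, and replicate 4 within all 3. The C3H minus 129P2 difference was 0.37 ± 0.11 (limma adjusted p = 0.0399), and the NZO minus 129P2 and 129P2 minus B6 differences of 0.32 ± 0.11 and -0.28 ± 0.11 did not pass (0.0659 and 0.132). Without 129P2 replicate 4 all 3 passed, at 0.47 ± 0.10, 0.41 ± 0.10 and -0.38 ± 0.10. The C3H minus 129P2 call ended without any one of C3H replicates 1 to 5 or 129P2 replicates 1, 2 and 5, with limma adjusted p up to 0.12.

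Insig1 encodes the retention protein that is itself a target of SREBP2. It read 11.90, 11.71, 11.93, 11.75 and 11.73 in NZO, 11.74, 11.90, 11.94, 12.14 and 12.43 in C3H, 10.81, 11.23, 11.33, 12.34 and 11.20 in 129P2 and 11.44, 12.15, 12.49, 12.60 and 12.18 in B6. In 129P2, replicate 4 lay far above the other 4, which were all below the lowest B6 value. Insig1 was lower in 129P2 than in B6, with a difference of -0.79 ± 0.22 (limma adjusted p = 0.0277), and by -1.03 ± 0.17 without 129P2 replicate 4 (0.000558). The call ended without any one of 129P2 replicates 1, 2, 3 and 5 and B6 replicates 3, 4 and 5, with limma adjusted p up to 0.0967. The C3H minus 129P2 and NZO minus 129P2 differences were 0.65 ± 0.22 and 0.42 ± 0.22 and did not pass with all animals (limma adjusted p = 0.0928 and 0.284). Without 129P2 replicate 4 both passed, at 0.89 ± 0.17 and 0.66 ± 0.17 (0.00275 and 0.0187).

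Insig2, the second retention protein, was lowest in NZO. Its level was 11.10, 10.43, 9.85, 10.85 and 10.48 in NZO, 11.38, 11.34, 11.62, 11.45 and 11.35 in C3H, 11.34, 10.98, 11.35, 12.20 and 11.20 in 129P2 and 10.66, 10.22, 11.17, 11.33 and 11.11 in B6. All 5 NZO values lay below all C3H values, the lowest being NZO replicate 3, and they overlapped 129P2 and B6. Insig2 was lower in NZO than in C3H, with a difference of -0.89 ± 0.22 (limma adjusted p = 0.0151) and lower in NZO than in 129P2, with a difference of -0.87 ± 0.22 (0.0139). Both calls ended without NZO replicate 3, at limma adjusted p = 0.0584 and 0.0553. The NZO minus B6 difference was -0.36 ± 0.22 and did not pass (0.326). C3H values, from 11.34 to 11.62, lay above all B6 values, from 10.22 to 11.33, as 3.48% of all tested genes did, and this difference of 0.53 ± 0.22 did not pass (0.148).

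Scap encodes the sterol-sensing escort of SREBP2. It read 10.47, 10.39, 10.44, 10.30 and 10.46 in NZO, 10.80, 10.75, 10.35, 10.63 and 10.64 in C3H, 10.75, 10.66, 10.85, 10.58 and 10.87 in 129P2 and 10.70, 10.55, 10.60, 10.91 and 10.69 in B6. The NZO values lay below all 129P2 and all B6 values and overlapped C3H through C3H replicate 3, the array of narrowest spread. Scap was lower in NZO than in 129P2, with a difference of -0.33 ± 0.09 (limma adjusted p = 0.0203), and this call ended without NZO replicate 4, 129P2 replicate 3 or 129P2 replicate 5, with adjusted p up to 0.065.

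**Figure D4:**
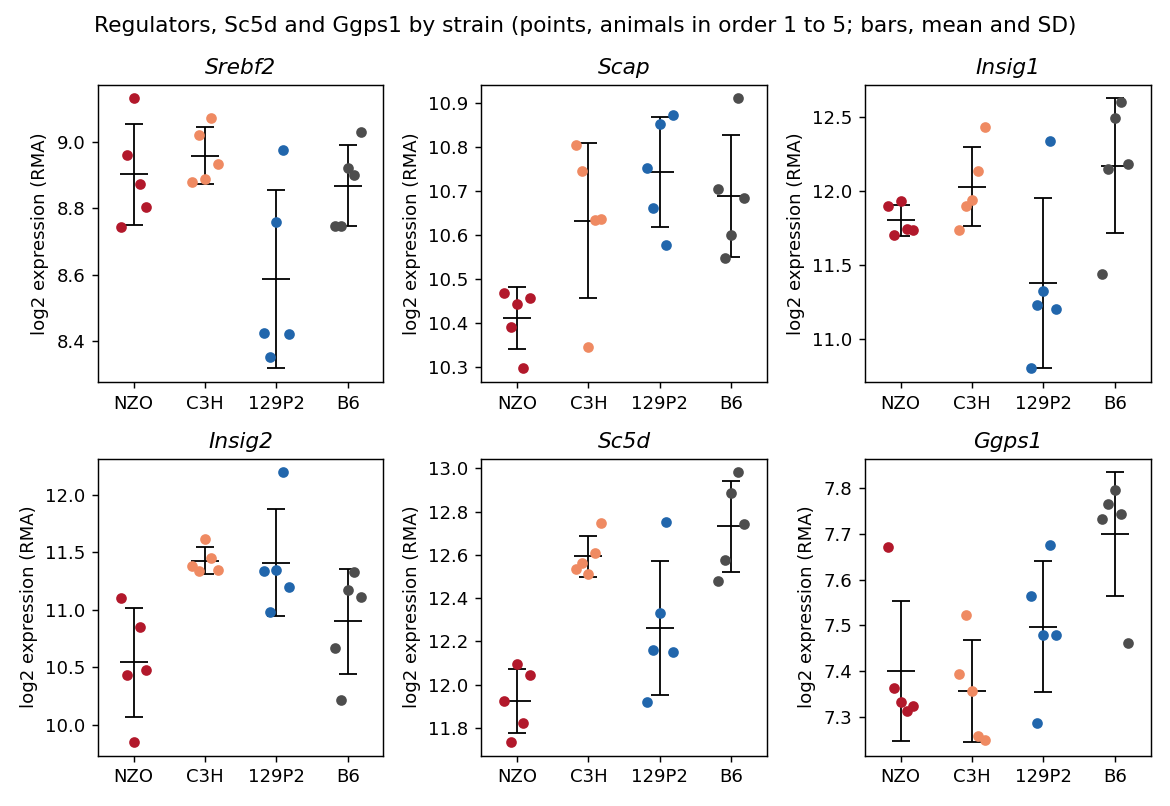
Log2 expression of Srebf2, Scap, Insig1, Insig2, Sc5d and Ggps1 in each animal by strain (points, replicates 1 to 5 from left to right; bars, mean and SD, n = 5). Scap, Insig2 and Sc5d have their lowest mean in NZO, while Srebf2 and Insig1 have it in 129P2.

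Values lower in NZO without overlap were few in the module: Pmvk, Sc5d and Insig2 against C3H (2.93% of all tested genes were), Scap against 129P2 (4.07%) and Sc5d, Scap and Mylip against B6 (5.82%). Of these, Pmvk in NZO minus C3H (-0.51 ± 0.16) and Scap and Mylip in NZO minus B6 (-0.28 ± 0.09 and -0.25 ± 0.09) did not pass with all animals (limma adjusted p = 0.0633, 0.0523 and 0.0848). Some markers of other liver cells were also lower in NZO: of 5 endothelial markers, 3 against C3H, 2 against 129P2 and 3 against B6. Of 5 stellate cell markers, 2, 3 and 3 were. Among all tested genes, 3.09%, 4.61% and 6.64% were lower in NZO in these comparisons. Over animals the mean level of the endothelial markers ran from 8.25 to 8.68 in NZO, 8.60 to 9.02 in C3H, 8.58 to 9.04 in 129P2 and 8.65 to 9.15 in B6. For the stellate markers the ranges were 8.40 to 8.73, 8.82 to 9.18, 8.86 to 9.11 and 8.70 to 9.38. Their part in the NZO results was not tested. Of the Kupffer cell markers, Clec4f was lower in NZO than in 129P2 and B6, Adgre1 lower in C3H than in 129P2 and B6, and Marco lower in 129P2 than in B6. The endothelial marker Lyve1 was lower in 129P2 than in B6, Clec4g higher in C3H than in 129P2, and the neutrophil markers S100a9 and Lcn2 higher in NZO than in B6. Of the cholangiocyte markers, 4 were measured and 3 passed the filter, and 0 of those 3 were called. In each comparison, 5.03% to 10.3% of all tested genes were called. Of 5 neutrophil markers, 3 were dim on all 20 arrays, S100a8, Ly6g and Retnlg. Of 5 lymphocyte markers, 3 were as well, Cd3g, Cd79a and Ms4a1.

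The branch and transport genes gave few calls. Ggps1, which makes geranylgeranyl diphosphate for protein prenylation, was lower in NZO than in B6, with a difference of -0.30 ± 0.08 and lower in C3H than in B6, with a difference of -0.34 ± 0.08 (limma adjusted p = 0.0256 and 0.0132). Its level was 7.67, 7.36, 7.33, 7.31 and 7.32 in NZO, 7.39, 7.52, 7.36, 7.26 and 7.25 in C3H, 7.57, 7.29, 7.48, 7.68 and 7.48 in 129P2 and 7.73, 7.77, 7.80, 7.74 and 7.46 in B6. NZO replicate 1 and B6 replicate 5 each lay apart from the other 4 animals of their strain, in opposite directions. Both calls ended once array spread was a covariate, at limma adjusted p = 0.0999 and 0.1, and the NZO minus B6 call also ended without any one of NZO replicates 2 to 5 or B6 replicates 1 to 4.

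Tmem97, a sterol-regulated membrane protein that binds NPC1, was higher in C3H than in 129P2 by 0.46 ± 0.12 (limma adjusted p = 0.0305). Its values in C3H, 10.46 to 10.71, lay just above those in 129P2, 9.72 to 10.46. Npc1, the lysosomal cholesterol exporter, was lower in NZO than in 129P2, with a difference of -0.40 ± 0.12 (0.0387), with overlapping values of 10.63 to 10.90 in NZO and 10.82 to 11.47 in 129P2. The Tmem97 call ended without any one of C3H replicates 4 and 5 and 129P2 replicates 1, 2 and 5, and the Npc1 call without any one of NZO replicates 1, 4 and 5 and 129P2 replicates 1, 3 and 5. Stard4, a carrier of cholesterol between membranes, Mylip, a ligase that sends lipoprotein receptors for degradation, and Npc2, the partner of NPC1 in the lysosome, passed in 0 of 6 comparisons. Their largest differences were 0.43 ± 0.14 for Stard4 in C3H minus 129P2, -0.27 ± 0.09 for Mylip in NZO minus C3H and -0.32 ± 0.12 for Npc2 in C3H minus B6.

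A second probe set was present for 3 genes, Idi1, Fdft1 and Tmem97. The Fdft1 mean was 10.98 in NZO, 11.06 in C3H, 10.05 in 129P2 and 10.69 in B6 with it, against 11.36, 11.55, 10.58 and 11.20 with the one used. For Idi1 the second set gave 9.88, 10.49, 9.34 and 9.79, against 9.96, 10.57, 9.43 and 9.88. In both genes C3H was highest and 129P2 lowest with either set, and for Tmem97, at 8.28, 8.44, 8.22 and 8.34 with the second set, too. Averaging the sets ended the Tmem97 call of C3H minus 129P2.

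The 10 genes outside the module whose deviations from the strain means were most like the mean of the 17 enzymes over 20 animals were Rdh11, Fasn, Mblac2, Acss2, Mmab, Pank3, Erg28, Gpam, Cyb5b and Dhrs7b, with Pearson correlations of 0.902 to 0.751 in that order. Mmab, the neighbour of Mvk in the gene annotation, was lower in 129P2 than in each other strain without overlap, by 0.58 ± 0.12 in NZO minus 129P2, 0.76 ± 0.12 in C3H minus 129P2 and -0.63 ± 0.12 in 129P2 minus B6 (limma adjusted p = 0.00237, 0.000199 and 0.00133). Mvk itself was 8.38, 8.55, 8.87, 8.56 and 8.49 in NZO, 8.57, 8.80, 8.73, 9.05 and 9.002 in C3H, 8.02, 8.03, 8.39, 8.72 and 8.15 in 129P2 and 8.46, 8.63, 8.18, 8.61 and 8.56 in B6. Its values overlapped between all strains, and with all animals it was called in 1 of the 6 comparisons, C3H minus 129P2. Its NZO minus 129P2 difference was 0.31 ± 0.13, and 0.42 ± 0.12 without 129P2 replicate 4 (limma adjusted p = 0.159 and 0.0264). Rdh11, first in that order, was higher in C3H than in 129P2 by 1.18 ± 0.24 (limma adjusted p = 0.00355), while NZO minus 129P2 (0.51) and 129P2 minus B6 (-0.71) did not pass (0.241 and 0.0919). Of the 10 genes, 1 was called in NZO minus 129P2 (Mmab), 2 in C3H minus 129P2 (Rdh11 and Mmab) and 3 in 129P2 minus B6 (Fasn, Mblac2 and Mmab). The shares of all tested genes called were 8.9%, 5.03% and 6.19% in the same order, so the first count was near that share. The Fasn call ended once array spread was a covariate. Dhrs7b had a negative C3H minus 129P2 difference, -0.20 (0.19).

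Cyb5r3, among the electron donors of the sterol enzymes, and Abcg5 and Abcg8, among the genes that answer to oxysterols, gave a further contrast. Cyb5r3, the reductase that feeds cytochrome b5, was 12.79, 13.03, 12.69, 13.19 and 12.996 in NZO, 13.24, 12.80, 13.001, 13.30 and 13.39 in C3H, 12.02, 11.81, 12.31, 12.17 and 12.21 in 129P2 and 13.14, 13.25, 13.08, 13.04 and 13.09 in B6. All 5 values in 129P2 lay below all others, with 0.84 ± 0.11 in NZO minus 129P2, 1.05 ± 0.11 in C3H minus 129P2 and -1.02 ± 0.11 in 129P2 minus B6 (limma adjusted p = 1.78e-05, 9.99e-07 and 1.55e-06). In contrast to the enzymes, 129P2 replicate 4 did not stand out. It was the one gene called among the 3 measured of a list of 9 on electron donors and cholesterol uptake.

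Abcg5 and Abcg8, the paired exporters of sterol into bile and targets of the oxysterol receptors LXR, were highest in 129P2. Abcg8 was 10.17, 10.0003, 9.92, 9.85 and 10.15 in NZO, 10.31, 10.32, 9.77, 10.24 and 10.10 in C3H, 11.47, 10.91, 11.18, 10.76 and 11.20 in 129P2 and 10.79, 10.48, 10.35, 10.99 and 10.62 in B6. The values in 129P2 lay above all NZO and C3H values and overlapped B6. Abcg8 differed by -1.09 ± 0.13 in NZO minus 129P2, -0.95 ± 0.13 in C3H minus 129P2 and 0.46 ± 0.13 in 129P2 minus B6 (limma adjusted p = 7.38e-06, 4.97e-05 and 0.0446), and the last of these ended without any one of NZO replicates 2, 3 and 5, C3H replicates 1, 4 and 5, 129P2 replicates 1, 3 and 5 and B6 replicates 2, 3 and 5 (up to 0.134). Abcg5 differed by -0.9997 ± 0.14 in NZO minus 129P2 and -0.85 ± 0.14 in C3H minus 129P2, and by 0.24 ± 0.14 in 129P2 minus B6, which did not pass (limma adjusted p = 0.396). Both were lower in NZO and in C3H than in B6, and the C3H calls ended once array spread was a covariate (limma adjusted p = 0.0548 and 0.174), that of Abcg8 also when C3H replicate 3, B6 replicate 1 or 4, or the 3 narrowest arrays together were left out. Of the 9 measured genes on LXR and its targets, 3 were lower in NZO minus 129P2, 2 in C3H minus 129P2, 4 each in NZO minus B6 and C3H minus B6, and 1 in NZO minus C3H, while 1 was higher and 2 were lower in 129P2 minus B6. The shares of all tested genes that were lower in these comparisons were 4.61%, 2.78%, 6.64%, 5.34% and 3.09% in the same order, and in 129P2 minus B6 2.11% were higher and 4.08% lower. All the LXR calls were of Abcg5, Abcg8, Srebf1 or Scd1, and the other measured genes of that list gave none. Srebf1 is counted again below among the genes on SREBP processing, and Scd1 among those on fatty acid synthesis.

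Srebf1, which encodes the related factor that drives fatty acid synthesis, had another strain order than the cholesterol enzymes. Its level was 9.44, 9.06, 9.27, 9.52 and 9.19 in NZO, 9.38, 9.57, 9.65, 9.82 and 9.83 in C3H, 9.64, 9.68, 9.72, 9.94 and 10.04 in 129P2 and 10.24, 9.98, 10.28, 10.63 and 10.41 in B6. B6 was highest, and Srebf1 differed by -1.01 ± 0.12 in NZO minus B6, -0.66 ± 0.12 in C3H minus B6 and -0.51 ± 0.12 in 129P2 minus B6 (limma adjusted p = 3.35e-06, 0.000888 and 0.00965, the last 0.0636 once array spread was a covariate). It was also lower in NZO than in 129P2 (-0.51 ± 0.12). Of 15 fatty acid synthesis genes, all measured, 8 were lower in NZO than in B6, 8 lower in 129P2 than in B6 and 7 lower in NZO than in C3H, with 0 called in NZO minus 129P2, 2 lower in C3H minus B6 and 2 higher in C3H minus 129P2. Once array spread was a covariate, the 129P2 minus B6 calls of Fasn, Acaca, Acly and Mid1ip1 ended. So did those of Acacb and Mid1ip1 in NZO minus B6, and of Acacb and Scd1 in C3H minus B6. The other calls of these genes held with that covariate. The Scd1 call of C3H minus B6 ended under 7 of the 11 other settings. Among all tested genes, 6.64% were lower in NZO minus B6, 4.08% in 129P2 minus B6, 3.09% in NZO minus C3H and 5.34% in C3H minus B6, 2.25% were higher in C3H minus 129P2, and 8.9% were called in NZO minus 129P2. Scd1, the stearoyl-CoA desaturase, differed by -1.91 ± 0.25 in NZO minus B6, and Fasn, the fatty acid synthase, by -1.39 ± 0.30 (limma adjusted p = 1.42e-05 and 0.00304).

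**Figure D5:**
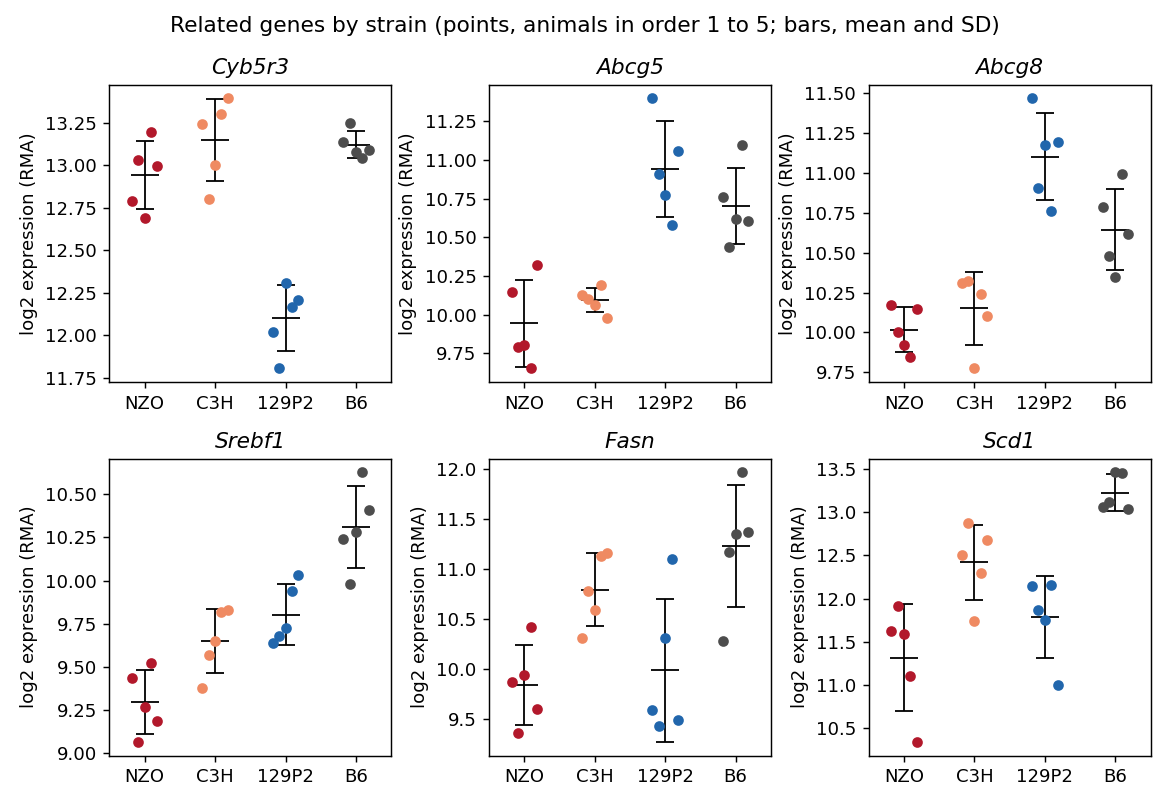
Log2 expression of Cyb5r3, Abcg5, Abcg8, Srebf1, Fasn and Scd1 in each animal by strain (points, replicates 1 to 5 from left to right; bars, mean and SD, n = 5). Cyb5r3 is lowest and the Abcg pair highest in 129P2, and Srebf1, Fasn and Scd1 are highest in B6.

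Of 14 measured genes on SREBP processing and its cofactors, Srebf1 was the one call in NZO minus 129P2. Erlin1, a sterol-responsive protein of the endoplasmic reticulum, was the one call in C3H minus 129P2 (0.56 ± 0.11, limma adjusted p = 0.00253). Among all tested genes, 8.9% and 5.03% were called in these comparisons. In 129P2 minus B6, Srebf1, Erlin1 and Nfyb were lower, against 4.08% of all tested genes. The Erlin1 and Nfyb calls ended without 129P2 replicate 2 or B6 replicate 4, and that of Erlin1 also without 129P2 replicate 4 or B6 replicate 3. Both also ended once array spread was a covariate (limma adjusted p = 0.129 and 0.0892). In NZO minus B6, Srebf1 and Rnf145 were lower, against 6.64% of all tested genes. Of 11 measured genes on sterol esterification and transfer, Scarb1, the lipoprotein receptor that takes up cholesterol esters, was the one called. It was lower in NZO, with differences of -0.73 ± 0.10 against C3H, -0.93 ± 0.10 against 129P2 and -0.69 ± 0.10 against B6 (limma adjusted p = 4.62e-05, 1.76e-06 and 9.53e-05). NZO values of Scarb1 ran from 10.42 to 10.70 and those of the other strains from 11.01 to 11.66. Of 12 tested genes on isoprenoid use, at most 1 was called in any comparison. Over the 6 comparisons, 5.03% to 10.3% of all tested genes were called.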

How the data were processed

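Liver RNA of 20 male mice was hybridized to 1 array per animal. The authors' deposited log2 values were used unchanged. The submitters' processing notes name Affymetrix Expression Console and RMA, without versions. Animals are numbered within a strain in series order. Of 35556 probe sets, 21789 carried 1 symbol in the platform annotation, and 1621 with several and 12146 with none were left out. The filter kept genes with 5 or more arrays above that array's 40th percentile, and lower values are called dim. Tests used limma 3.58.1 in R 4.3.3, with a mean for each strain, moderation along intensity, and p-values adjusted by Benjamini-Hochberg over 14190 genes at a threshold of 0.05. Figures used matplotlib 3.10.9.

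All 29 genes of the module could be named, with called genes of the related lists, the cell markers and the 10 genes of most similar pattern. The members and lists were chosen with earlier results of these data known. The fit was tested on simulated data. The alternatives were no or a stricter filter (60th percentile), equal array medians, quantile normalization, robust moderation, moderation without the trend, averaged probe sets, array weights, array spread as a covariate, leaving out the 3 arrays of narrowest spread, fitting the compared strains alone, and leaving out each animal. Nothing in the labels says that animals come from separate litters or cages, so p-values measure the spread between these animals. The number of arrays limits the precision. For a gene, 1 probe set was used, and RefSeq promoters of GRCm38.p6 were matched by symbol.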

Additional observations from a re-analysis of the deposited data

Results flagged for a closer look

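Among 108 groups of 5 animals, one for each of the 27 genes and 4 strains, 4 held an animal far from the others by Dixon's criterion at the 95% level, where chance marks about 1 in 20 groups. Ggps1 stood at 7.67 in NZO replicate 1, above 7.31 to 7.36 in the other 4 NZO animals. In B6 replicate 5 it stood at 7.46, below 7.73 to 7.80 in the other 4 B6 animals. Mylip stood at 7.99 in C3H replicate 3, below 8.35 to 8.48 in the other C3H animals, and Npc1 at 10.44 in the same animal, below 10.90 to 11.08. The array of C3H replicate 3 had the narrowest spread of the 20, at 2.171, and its part in these values was not tested.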

How the results depend on the processing

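Of the called results compared, 0 changed direction under the alternatives run. No paired analysis was made, because each animal has 1 array and the labels name no pairing between animals of different strains. The C3H minus 129P2 calls numbered 15 to 18 under the 11 settings (17 in the report). NZO minus 129P2 gave 9 calls without the 3 arrays of narrowest spread, against 14. NZO minus C3H, with 2 calls, gave 5 with array weights and 5 with array spread as a covariate. NZO minus B6, also with 2, gave 4 with array weights, 4 without the 3 narrowest arrays, 4 with the compared strains alone and 1 with array spread as a covariate. C3H minus B6, with 1, gave 2 with quantile normalization, 3 with array weights and 3 with the compared strains alone. The 9 calls of 129P2 minus B6 became 5 with quantile normalization, 4 with robust moderation, and 2 with array spread as a covariate, without the 3 narrowest arrays and with the compared strains alone. The 6 enzymes lower in 129P2 than in each other strain, counted jointly after seeing the data, became 3 with quantile normalization or array weights, 2 with robust moderation, array spread as a covariate or the compared strains alone, and 1, Cyp51, without the 3 narrowest arrays. The causes were not tested.

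Leaving out 1 animal gave 1 to 4 calls in NZO minus C3H, 10 to 18 in NZO minus 129P2, 1 to 4 in NZO minus B6, 14 to 19 in C3H minus 129P2, 1 to 2 in C3H minus B6, 2 to 16 in 129P2 minus B6, 15 to 22 by the F-test, 2 to 13 lower in 129P2 than in each other strain, and 2 to 4 following array spread. Precision rests on 5 animals a strain.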
